A study of Mus musculus with 46 samples.

Results

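The genes described here encode subunits of respiratory complexes I and III of the mouse. They were taken by name from the deposited expression table: Nduf followed by a, b, c, s or v and a number, Uqcr followed by any letters or digits, and Atp5 followed by any letters or digits. The rule found 44 of 7182 genes, of which 36 are Nduf genes and 8 are Uqcr genes. It found 0 Atp5 genes, so the subunits of ATP synthase were not analysed here. The 10 core subunits are the 7 nuclear-encoded core subunits of complex I and, of complex III, the Rieske protein and the pair of large core proteins. Another 33 are small or accessory subunits, 28 of complex I and 5 of complex III. The last gene, Ndufa4, carries a complex I name but was later assigned to cytochrome c oxidase, and is kept apart.

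Complex I takes electrons from NADH and passes them through a chain of iron-sulphur clusters to ubiquinone. Complex III takes them from ubiquinol to cytochrome c. Both pump protons across the inner mitochondrial membrane, and ATP synthase uses the gradient. Core subunits carry the cofactors or form the body of a complex, while accessory subunits are mostly small proteins around it that serve in assembly and stability. The subunits encoded by mitochondrial DNA are outside the naming rule, and so is cytochrome c1 of complex III. Pluripotent cells of the mouse are known to rely more on glycolysis after implantation than before it.

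The study disrupted Rbbp5, a shared subunit of the histone H3 lysine 4 methyltransferase complexes, in zygotes, and compared Rbbp5 KO with WT embryos. Zygotes received either Cas9 mRNA with a guide RNA against Rbbp5 or, where they were Rbbp5 flox/flox, Cre mRNA. The sources used here do not say which of these made a given library, or which zygotes served as WT. RNA was sequenced by SMART-seq2 from 7 KO and 7 WT inner cell masses (ICM, the inner part of the blastocyst) of embryonic day 3.5 (E3.5), freed of trophectoderm by immunosurgery, 1 embryo per library, after culture in KSOM medium. At E5.5, 3 KO and 3 WT libraries came from hand-dissected epiblasts of single embryos that had implanted in foster mothers. At E4.5, single cells labelled epiblast (epi; 3 KO, 7 WT) and primitive endoderm (PE; 2 KO, 1 WT) were sequenced, with no embryo named for a cell. Genotype is taken from the labels alone, since Rbbp5 expression was not analysed here.

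Expression is given as FPKM, fragments scaled to transcript length and to the library's mapped fragments, so levels of different genes are per length. Sequencing depth is unknown from these values. Genes detected at 1 FPKM or above numbered 3628 to 5136 in KO ICM libraries, against 5110 to 5718 in WT ICM libraries, and KO libraries 1, 4 and 6 were lowest at 3628, 3642 and 3883. They numbered 5457 to 5895 in KO E5.5 libraries and 5738 to 5805 in WT E5.5 libraries. The KO libraries labelled E5.5 epiblast differ from the WT E5.5 libraries in cell type markers. Trophectoderm markers summed to 2182 to 3858 FPKM there, against 97.8 to 148 FPKM in WT E5.5 libraries, and 12 of 12 tested were called higher, with a median log2 change of 4.65. Of 13 such markers in the table, 0 were under 1 FPKM in every KO E5.5 library and 6 were under 1 FPKM in every WT E5.5 library. Epiblast markers summed to 50.004 to 141 FPKM in KO E5.5 libraries and 418 to 469.6 FPKM in WT E5.5 libraries, with 5 of 7 called lower and 1 higher. Over all genes tested at E5.5, 15.6% were called higher and 18.5% lower. A separate list of E5.5 epiblast markers summed to 65.9 to 234 FPKM in KO and 713 to 813 FPKM in WT E5.5 libraries. It summed to 7.87 to 17.4 FPKM in KO ICM and 11.2 to 18.7 FPKM in WT ICM. Whether epiblast or other cells expressed the trophectoderm markers was not tested. In ICM libraries the trophectoderm markers summed to 44.9 to 178 FPKM in KO and 59.1 to 1028 FPKM in WT. Of these, 4 of 9 were called lower, where 24.9% of all genes were. Without KO libraries 1, 4 and 6, 2 of 9 were called lower, where 5.91% of all genes were. The part of all these markers in the results below was not tested. Fewer cells of a type and less RNA per cell cannot be told apart in whole-embryo samples.

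All 44 genes matched a RefSeq gene of GRCm38.p6 by symbol, and 37 had at least 1 promoter in the RefSeq promoter table, which runs from 250 bases before to 50 bases after a gene's start. The promoters of 4 genes that mark the ends of the ICM results are printed, with any exact match to a motif of a factor known from respiratory genes in capitals. Ndufb2 had the largest increase of complex I and Uqcr11 that of complex III, while Uqcrc1 had the largest decrease and Ndufa9 was the only accessory subunit called lower. They lie at chr6:39592315-39592614 on the plus strand (Ndufb2), chr10:80406772-80407071 on the minus strand (Uqcr11), chr9:108936398-108936697 on the plus strand (Uqcrc1) and chr6:126849095-126849394 on the minus strand (Ndufa9).
Ndufb2: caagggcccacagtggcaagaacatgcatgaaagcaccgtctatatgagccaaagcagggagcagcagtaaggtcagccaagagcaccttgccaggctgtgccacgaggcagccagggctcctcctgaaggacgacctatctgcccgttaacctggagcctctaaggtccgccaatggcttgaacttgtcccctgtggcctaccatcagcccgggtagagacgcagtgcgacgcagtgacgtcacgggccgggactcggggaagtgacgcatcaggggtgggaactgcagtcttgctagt
Uqcr11: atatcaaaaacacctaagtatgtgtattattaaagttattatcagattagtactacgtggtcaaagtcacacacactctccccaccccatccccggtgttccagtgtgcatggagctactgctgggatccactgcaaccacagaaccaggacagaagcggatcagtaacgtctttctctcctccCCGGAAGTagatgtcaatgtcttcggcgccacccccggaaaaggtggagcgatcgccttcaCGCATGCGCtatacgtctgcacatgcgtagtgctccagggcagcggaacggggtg
Uqcrc1: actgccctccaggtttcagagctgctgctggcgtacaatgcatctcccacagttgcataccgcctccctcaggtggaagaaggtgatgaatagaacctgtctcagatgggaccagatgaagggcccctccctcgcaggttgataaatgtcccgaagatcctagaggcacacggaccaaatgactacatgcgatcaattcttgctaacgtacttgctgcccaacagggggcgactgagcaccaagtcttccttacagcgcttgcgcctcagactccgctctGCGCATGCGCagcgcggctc
Ndufa9: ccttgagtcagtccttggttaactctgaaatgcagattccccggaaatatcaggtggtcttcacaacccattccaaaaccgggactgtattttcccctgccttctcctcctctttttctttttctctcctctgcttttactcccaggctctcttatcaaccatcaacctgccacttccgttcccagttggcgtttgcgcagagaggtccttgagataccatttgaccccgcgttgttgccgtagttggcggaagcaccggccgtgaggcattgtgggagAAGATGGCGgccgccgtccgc
The Uqcr11 promoter holds the ETS motif CCGGAAGT, which begins 66 bases before the start, and, on the opposite strand, the NRF1 motif GCGCATGCG, which begins 5 bases before it. The Uqcrc1 window holds the NRF1 motif on both strands, overlapping, from base 31 after the start, and the Ndufa9 window the YY1 motif AAGATGGCG from base 30 after it. No motif was found in the Ndufb2 window. Searched on both strands, NRF1 matched 4 of the 37 genes (Ndufa8, Ndufa11, Uqcr11 and Uqcrc1), and 1.75% of all 32851 promoters of that length. ETS matched 3 genes (Ndufs3, Uqcr11 and Uqcrh) and 3.89% of promoters, and YY1 matched 5 genes (Ndufa9, Ndufc1, Ndufs4, Ndufs6 and Ndufs7) and 1.40% of promoters. The NRF1 and YY1 motifs were shortened by 1 letter after a first search had been seen, which changed the promoters that match, so these counts hold for the letters given and no others. Genes called higher and genes called lower in KO ICM both occur among them, and a match is only a run of letters.

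In KO ICM, transcripts of the small accessory subunits were higher than in WT ICM. Several large core subunits were called lower, though the core median lay close to that of all genes. Of the 44 genes, 31 were called higher, 5 lower and 8 neither way (limma on log2(FPKM + 1), Benjamini-Hochberg adjusted p under 0.05 over 5443 genes). Over all genes tested, 3.44% were called higher and 24.9% lower, and the median log2 change was −0.65, against 0.91 for the 44 genes. Of 33 accessory genes, 29 were called higher and 1 lower, with a median log2 change of 0.98. Of 10 core genes, 1 was called higher and 4 lower, with a median of −0.52, or 0.13 relative to that of all genes. This core median became 0.03 with median ratio scaling of the libraries and 0.10 with the count of detected genes as a covariate. It became 0.29 with each library's trend of level on gene span (start to end of the gene in the genome) removed, which also recentres the library. In these settings, in the same order, the median of all genes was −0.26, −0.02 and 0.04. Without Uqcrc1 and Uqcrc2, which carry no cofactor, 2 of the 8 remaining core genes were called lower and the median was −0.33. Without KO libraries 1, 4 and 6, 22 accessory genes were called higher and 0 lower, and 1 core gene was called in each direction. Of all genes, 1.39% were then called higher and 5.91% lower.

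With the count of detected genes as a covariate, 0 of the 44 genes and 0 of all 5443 genes were called by limma, and 16 of the 44 had an unadjusted p under 0.05. KO library 5 detected more genes than WT library 3, and every other KO library detected fewer genes than every WT library, so that genotype and gene number nearly coincide. Quantile normalization gave 28 of the 44 genes higher and 1 lower, beside 357 higher and 351 lower of all genes, where the values as deposited gave 187 and 1353.

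**Figure D1:**
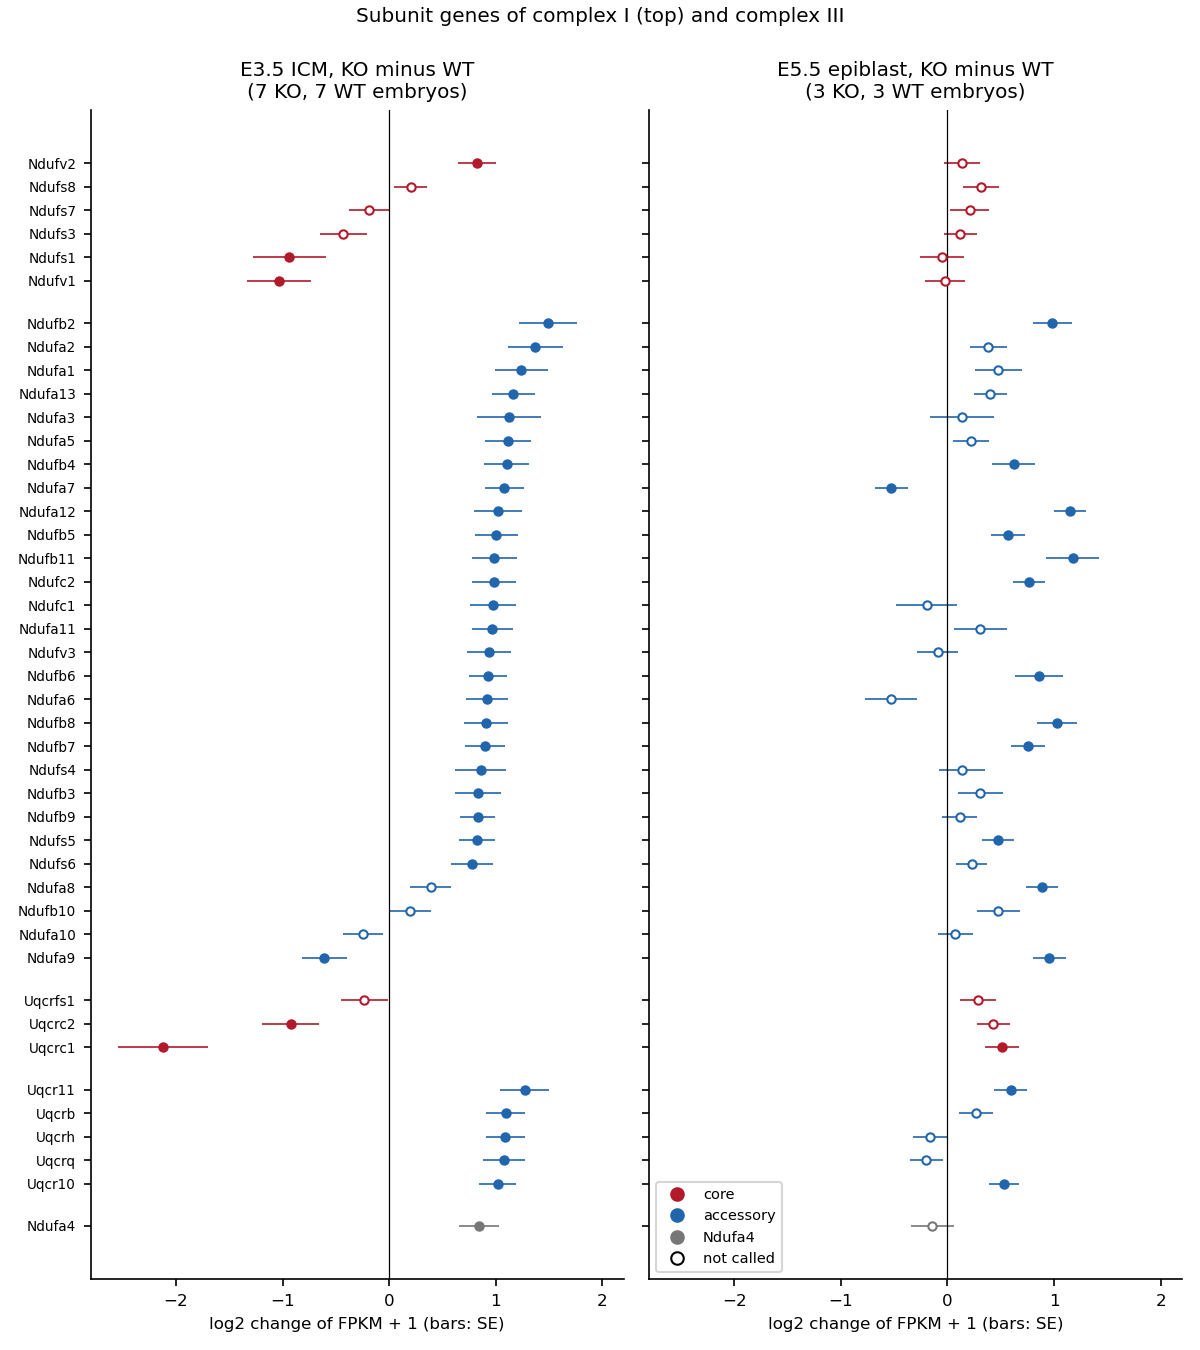
Log2 change (KO minus WT, FPKM + 1, x axis) of 43 of the 44 genes in E3.5 ICM (left, 7 KO and 7 WT embryos) and in E5.5 epiblast libraries (right, 3 and 3), with standard errors; filled points were called, and genes are blocked by complex I core, complex I accessory, complex III core, complex III accessory and Ndufa4. In ICM the accessory genes lie near 1 and most core genes below 0, where the median of all genes was −0.65. The core median became 0.03 with median ratio scaling and 0.29 with the gene span trend removed. The median of all genes was then −0.26 and 0.04. At E5.5 all genes shown lie between −0.53 and 1.18.

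In complex III the small and the large subunits moved apart. All 5 of the small subunits were called higher, by 1.02 to 1.27 on the log2 scale, and in all 5 every KO library lay above every WT library. Uqcr11 had a lowest, median and highest FPKM of 962, 1567 and 2465 in KO ICM, against 426, 698 and 945 in WT ICM, a log2 change of 1.27 (SE 0.23, adjusted p = 0.00232). Uqcrb, a small subunit near the quinone site, had 1244, 1856 and 2706 FPKM in KO ICM, against 703, 848 and 1197 FPKM in WT ICM (log2 change 1.09, SE 0.18, adjusted p = 0.00219). Uqcr10, the most abundant of the 44 genes over the 20 embryo libraries with a mean of 1555 FPKM, reached 1871, 2592 and 3456 FPKM in KO ICM, against 900.4, 1307 and 1686 FPKM in WT ICM (log2 change 1.02, SE 0.18). For these genes the lowest KO library stood above the highest WT library.

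The large core proteins of complex III, which form its matrix-side body, went the other way. Uqcrc1 had a lowest, median and highest FPKM of 19.9, 62.8 and 214 in KO ICM, against 257, 358 and 439 in WT ICM. It is the only one of the 44 genes whose KO libraries all lay below the WT libraries, and its log2 change was −2.12 (SE 0.42, adjusted p = 0.00326). Without KO libraries 1, 4 and 6, which were lowest at 57.6, 19.9 and 33.2 FPKM, its log2 change was −1.26 (SE 0.28, adjusted p = 0.0255). It was also called with quantile normalization (−1.99), median ratio scaling (−1.57) and the gene span trend removed (−1.30), where Uqcrc2 was not. With the count of detected genes as a covariate Uqcrc1 was −0.41 and Uqcrc2 −0.02, and neither was called. Uqcrc2 had 45.8, 63.5 and 133 FPKM in KO ICM, against 113, 141 and 184 FPKM in WT ICM, with overlap between the groups (log2 change −0.92, SE 0.27, adjusted p = 0.0179). Without the same 3 libraries its log2 change was −0.54 and it was no longer called. With all libraries, relative to the median of all genes, Uqcrc1 lay at −1.47 and Uqcrc2 at −0.27. The Rieske iron-sulphur protein Uqcrfs1, which carries electrons, had medians of 200.7 FPKM in KO ICM and 238 FPKM in WT ICM and was not called (log2 change −0.23, SE 0.22; 0.33 with median ratio scaling and 0.48 with the gene span trend removed).

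Of the 7 core subunits of complex I, 1 was called higher and 2 lower, all in the NADH module, where electrons enter. Ndufv1, which binds NADH and FMN, had a lowest, median and highest FPKM of 16.9, 37.3 and 56.5 in KO ICM, against 40.9, 81.4 and 108 in WT ICM (log2 change −1.03, SE 0.30, adjusted p = 0.0190). Ndufs1, the largest subunit, had the lowest mean of the 44 genes over the 20 embryo libraries, 32.0 FPKM, with 8.09, 14.3 and 24.6 FPKM in KO ICM, against 10.7, 32.8 and 47.8 FPKM in WT ICM (log2 change −0.94, SE 0.34, adjusted p = 0.0492). The groups overlap for both genes, which lay at −0.38 (Ndufv1) and −0.28 (Ndufs1) relative to the median of all genes. Ndufs1 lost its call without any 1 of KO libraries 1, 2, 3, 4 and 6 or WT libraries 1, 2, 3, 4, 6 and 7, while Ndufv1 kept its call without any single library. Neither was called under other scalings: Ndufv1 was −0.58 with quantile normalization, −0.48 with median ratio scaling, −0.52 with cyclic loess and −0.30 with the gene span trend removed, and Ndufs1 was −0.35, −0.40, −0.24 and −0.16 in the same order. Without KO libraries 1, 4 and 6 the log2 changes of Ndufv1 and Ndufs1 were −0.80 and −0.67 and neither was called. Ndufv2, a small iron-sulphur subunit of the same module, had 202, 299.9 and 402 FPKM in KO ICM, against 136, 176 and 187 FPKM in WT ICM, with no overlap (log2 change 0.82, SE 0.18). It remained higher without those libraries, with a log2 change of 0.69.

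Ndufs3, Ndufs7 and Ndufs8, core subunits of the quinone module, which hands electrons to ubiquinone, were not called. Their log2 changes were −0.43 for Ndufs3, −0.19 for Ndufs7 and 0.20 for Ndufs8. Ndufs7, which carries the last iron-sulphur cluster, had medians of 380.2 FPKM in KO ICM and 362 FPKM in WT ICM. The signs of these small differences depended on scaling: with the gene span trend removed Ndufs3 and Ndufs7 were 0.39 and 0.62, and Ndufs7 and Ndufs8 were then called higher. That step also moved the median of all genes, from −0.65 to 0.04.

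**Figure D2:**
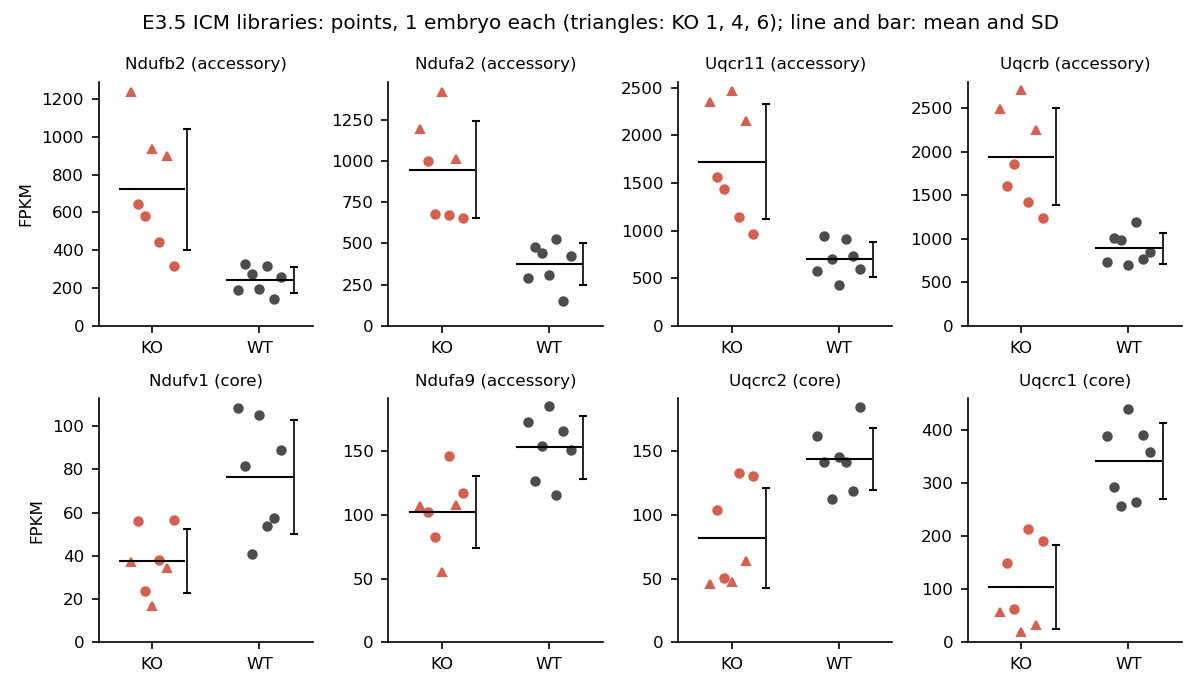
FPKM (y axis, from 0) of 8 genes in each E3.5 ICM library, 7 KO left and 7 WT right, with mean and SD; triangles are KO libraries 1, 4 and 6. Upper row, accessory subunits that were higher in KO; lower row, genes that were lower in KO, where Uqcrc1 spans 19.9 to 214 in KO and 257 to 439 in WT.

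Accessory subunits of both arms of complex I were higher in KO ICM. Of the 19 in the membrane arm, which pumps protons, 16 were called higher and 0 lower. Ndufb2 had a lowest, median and highest FPKM of 314, 646 and 1237 in KO ICM, against 142, 256 and 329 in WT ICM, the lowest KO library falling just inside the WT range (log2 change 1.49, SE 0.27, adjusted p = 0.00251). Ndufa1, which is needed for complex I assembly, had 474, 806 and 1088 FPKM in KO ICM, against 166, 335 and 642 FPKM in WT ICM (log2 change 1.24, SE 0.25, adjusted p = 0.00347). The 3 that were not called were Ndufa8 at 0.39, Ndufb10 at 0.20 and Ndufa10 at −0.25.

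In the matrix arm, which carries the redox chain, 8 of 9 accessory subunits were called higher and 1 lower. Ndufa2 had 656, 1002 and 1419 FPKM in KO ICM, against 153, 425 and 528 FPKM in WT ICM, without overlap (log2 change 1.37, SE 0.26, adjusted p = 0.00266). Ndufa7, the most abundant Nduf gene with a mean of 1109 FPKM over 20 embryo libraries, had 1342, 1751 and 2429 FPKM in KO ICM, against 615, 957 and 1203 FPKM in WT ICM (log2 change 1.08, SE 0.18). Ndufa9, a large accessory subunit close to the quinone site, was the exception, with 55.4, 107 and 146 FPKM in KO ICM, against 116, 154 and 185 FPKM in WT ICM (log2 change −0.61, SE 0.21, adjusted p = 0.0393). Without KO libraries 1, 4 and 6 it was −0.46 and not called, nor was it called without any 1 of KO libraries 3, 4 and 6 or WT libraries 1, 3, 4, 6 and 7, and with the gene span trend removed it was 0.18. With the values as deposited and all libraries, Ndufa9 lay at 0.05 relative to the median of all genes. Ndufa4 was called higher, with a log2 change of 0.84.

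Across the 44 genes, KO libraries did not overlap WT libraries in 18 that were higher and 1 that was lower, where 1.29% and 3.33% of all genes tested did not overlap in those directions. The 44 genes held 6.74% to 10.8% of the FPKM summed over all 7182 genes in KO ICM libraries, against 4.26% to 5.997% in WT ICM libraries. Within each KO library the accessory median, relative to the WT mean, lay between 0.56 and 1.41 and the core median between −1.17 and −0.01. The distance between both classes was widest in the libraries with fewest genes detected: it lay between 1.89 and 2.58 in KO libraries 1, 4 and 6, against 0.59 and 0.63 in KO libraries 7 and 5, which detected 5022 and 5136 genes. In WT libraries it ran from −0.43 to 0.40, and there too it was mostly wider with fewer genes detected. It was −0.41 and −0.43 in WT libraries 1 and 4, which detected most genes (5718 and 5638). In WT libraries 3 and 5, with 5110 and 5277 genes, it was 0.35 and 0.40. WT libraries 6, 2 and 7, with 5219, 5374 and 5404 genes, had 0.03, 0.14 and −0.25.

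**Figure D3:**
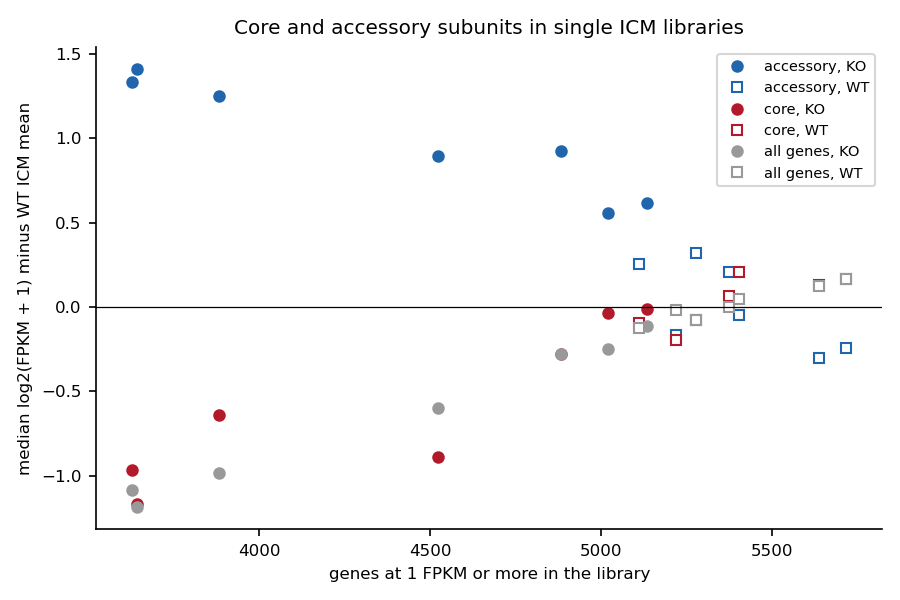
Median log2(FPKM + 1) relative to the WT ICM mean (y axis) of accessory genes, core genes and all genes tested in each ICM library, against its count of genes reaching 1 FPKM (x axis); filled points are KO libraries and open squares WT libraries. KO libraries 1, 4 and 6, at the left, have accessory medians of 1.25 to 1.41 and core medians of −0.64 to −1.17, beside −0.98 to −1.19 for all genes.

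Expression level and gene span moved with the change. Among the 44 genes, Spearman's rho of the ICM change with mean FPKM was 0.58 and with gene span −0.41, as a description over genes that share their libraries. The mean FPKM was taken over KO and WT libraries together, so a gene higher in KO also counts at a higher level. That sets the rho with level and the counts by level in part. Ndufa1 and Ndufa2, for example, averaged 354 and 375 FPKM in WT ICM but count at 500 FPKM or more. At a mean of 500 FPKM or more, 17 of 17 members were called higher, with a median log2 change of 1.08, and 50.9% of the 110 other genes at that level were called higher, with a median of 0.55. Between 200 and 500 FPKM, 10 of 14 members were called higher, against 24.8% of 161 other genes. Between 100 and 200 FPKM, 3 of 8 members were called higher and 2 lower, against 12.6% of 222 other genes higher. Of genes spanning under 5000 bases, 11 of 13 members and 11.6% of 545 others were called higher. The part of level and span in the result was not tested beyond these values and the scalings named.

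**Figure D4:**
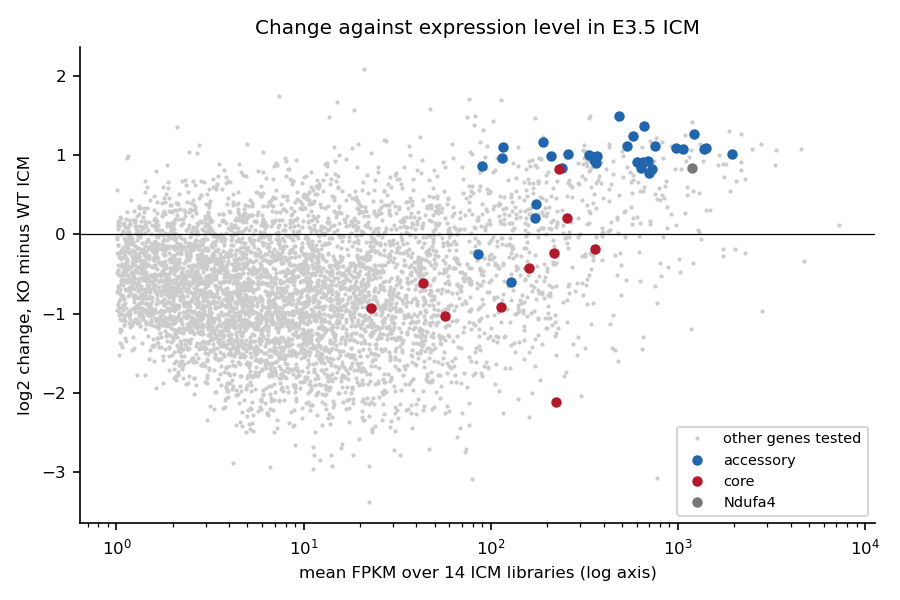
Log2 change in E3.5 ICM (KO minus WT, y axis) against mean FPKM over 14 libraries (x axis, log scale) for all 5443 genes tested, with accessory subunits in blue, core subunits in red and Ndufa4 in dark grey. Genes of 500 FPKM or more, members and others, lie mostly above 0, with medians of 1.08 and 0.55. The mean includes the KO libraries, so a change in KO also moves a gene along the x axis. The core median below 0 becomes 0.03 with median ratio scaling and 0.29 with the gene span trend removed. The median of all genes is then −0.26 and 0.04.

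Genes that serve the same complexes were described from lists chosen with earlier results of these data known, and their counts stand beside 3.44% of all genes called higher and 24.9% called lower in ICM. Without KO libraries 1, 4 and 6 these shares were 1.39% and 5.91%. Of 9 complex I assembly genes tested in ICM, Ndufab1, the acyl carrier protein that is also a subunit, was called higher (log2 change 0.86), and Acad9 (−1.28) and Ecsit (−1.40) were called lower, or 0 higher and 1 lower without KO libraries 1, 4 and 6. Both complex III assembly genes tested, Bcs1l (−1.37), which inserts the Rieske protein, and Ttc19 (−0.87), were not called. Of 6 complex II genes, which feed electrons from succinate, Sdha was called lower (−1.16), or 0 without those libraries. Usmg5, the small DAPIT protein bound to ATP synthase, was called higher (0.97), or not without them.

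The tricarboxylic acid cycle and pyruvate dehydrogenase genes, which supply NADH to complex I, were mostly lower in KO ICM. Of 17, 15 were called lower and 0 higher, with a median log2 change of −1.38, among them Idh2 (−2.22) and Mdh2 (−1.59). Without KO libraries 1, 4 and 6, 5.91% of all genes were called lower and their median was −0.34. In that fit 5 of the 17 were called lower and the median of the 17 was −0.79. The summed level of the 17 was 643 to 1659 FPKM in KO ICM libraries and 1953 to 2509 FPKM in WT ICM libraries, without overlap. Of 22 mitochondrial import genes, 8 were called higher and 4 lower. Small subunits of the outer membrane pore, Tomm7 (1.12) and Tomm6 (0.97), and the small chaperone Timm8b (1.15) were higher, while the pore protein Tomm40 (−2.40) was lower. Without those libraries 4 were called higher and 2 lower. Of 8 regulators of mitochondrial biogenesis, the transcription factor Nrf1 (−1.54) and Tfb2m (−1.04) were called lower, or 0 without those libraries. For the complex I assembly, complex II and biogenesis lists the lower calls, 2 of 9, 1 of 6 and 2 of 8, are near the share of all genes called lower.

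At E5.5, where KO libraries carry the trophectoderm markers given above, 15 of the 44 genes were called higher, 1 lower and 28 neither way. Over 5956 genes tested, 15.6% were called higher and 18.5% lower, with a median log2 change of −0.07, against 0.31 for the 44 genes. Accessory subunits made up 14 of the 15, 10 of them in the membrane arm of complex I, and the other was Uqcrc1. Groups did not overlap in 19 genes that were higher and 3 that were lower, where 22.6% and 26.6% of all genes did not overlap. The count of 15 fell to 8 without WT library 2 and to 6 when all 4 embryo groups were fitted together.

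Ndufa12, an accessory subunit of the matrix arm, had 262, 249.8 and 263 FPKM in KO E5.5 libraries, against 104, 118 and 125 FPKM in WT E5.5 libraries, a log2 change of 1.15 (SE 0.15, adjusted p = 0.000441). Ndufa9 had 180.0, 184 and 199.8 FPKM in KO and 99.0, 86.8 and 104 FPKM in WT libraries (log2 change 0.96, SE 0.16, adjusted p = 0.00148). Neither gene's groups overlap. Ndufa8, on the side of the membrane arm that faces the intermembrane space, had 224, 199.7 and 219 FPKM in KO and 118, 109 and 119 FPKM in WT libraries (log2 change 0.89, SE 0.15, adjusted p = 0.00166). Ndufb8 had 671, 471 and 671 FPKM in KO and 293, 249 and 341 FPKM in WT libraries (log2 change 1.03, SE 0.18, adjusted p = 0.00242). Ndufb2 had 377, 251 and 377 FPKM in KO and 166, 163 and 168 FPKM in WT libraries (log2 change 0.98, SE 0.18, adjusted p = 0.00278). KO library 2 was the lowest KO library for the membrane arm subunits Ndufa8, Ndufb8 and Ndufb2, and all its values for them were above WT.

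Of the 10 core subunits, 1 was called at E5.5. Uqcrc1 had 488, 468 and 543 FPKM in KO and 364, 292 and 402 FPKM in WT libraries, and was called higher (log2 change 0.51, SE 0.16, adjusted p = 0.0300). It was not called without WT library 1, WT library 2 or KO library 3. Of the others, Uqcrc2 had a log2 change of 0.43, Ndufs8 of 0.31 and Ndufs1 of −0.05, with no call. Ndufa7 was the only one of the 44 called lower, with 430.4, 339 and 474 FPKM in KO and 613, 583 and 578 FPKM in WT libraries (log2 change −0.53, SE 0.16, adjusted p = 0.0254), and it was not called without any 1 of the WT libraries or KO library 2.

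The counts of the other lists at E5.5 stand beside 15.6% of all genes called higher and 18.5% called lower, and those of the complex II and import lists are near or below these shares. Of these lists, 6 of 17 tricarboxylic acid cycle genes were called higher and 0 lower and among them were Idh3b (1.04), Idh3g and Idh3a (0.58), the subunits of the NAD-linked isocitrate dehydrogenase. Of 9 complex I assembly genes 0 were called, and Ndufaf3 had the smallest p (log2 change −0.85). Of 6 complex II genes, Sdhb was called higher (0.81) and the assembly factor Sdhaf2 lower (−0.88). Of 8 biogenesis regulators 2 were called higher, Polg (2.58) and Yy1 (0.88), and 2 lower, Nrf1 (−1.0015) and Tfam (−0.55). Of 22 import genes 4 were called higher and 2 lower, among them Timm8a1 (0.78), Pam16 (0.77) and Tomm40 (−1.25). The trophectoderm markers differ between the same groups, and their part was not tested.

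Of the 44 genes, 12 were called higher at both stages and 18 in ICM without a call at E5.5. Uqcrc1 and Ndufa9 were called lower in ICM and higher at E5.5, and Ndufa7 the reverse. The difference of the effects was tested directly as the KO effect at E5.5 minus that in ICM. It was called in 8 of the 44 genes, 3 higher and 5 lower, where 10.6% of 5917 genes were called higher and 3.38% lower, and the median over all genes was 0.56. Uqcrc1 differed by 2.63 (SE 0.70, adjusted p = 0.0148), Ndufa9 by 1.56 (SE 0.34, adjusted p = 0.00339) and Uqcrc2 by 1.35 (SE 0.43, adjusted p = 0.0372). On the lower side were Ndufa7 at −1.61 (SE 0.30, adjusted p = 0.00105), Ndufa6 at −1.45, Uqcrq at −1.28, Uqcrh at −1.25 and Ndufa4 at −0.98. Uqcrc2 and Ndufa4 lost this call without KO libraries 1, 4 and 6 of the ICM, and without any single E5.5 library except, for Ndufa4, KO library 3. Only 6 of the 8 calls were kept without any 1 of WT ICM libraries 1, 4 and 7 or KO ICM library 3. The E5.5 libraries differ in cell markers, so the difference between stages cannot be told apart from that.

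Ndufa6, an accessory subunit of the matrix arm, had 191, 111 and 228 FPKM in KO and 266, 229 and 242 FPKM in WT E5.5 libraries, and in ICM a lowest, median and highest of 484, 749.6 and 1314 FPKM in KO and 352, 367 and 576 FPKM in WT. Its KO libraries lay below all WT libraries at E5.5, where it was not called, and mostly above them in ICM. Uqcrh, the hinge protein beside cytochrome c1, had a median of 382 FPKM in KO and 433 FPKM in WT E5.5 libraries, and of 1356 FPKM in KO and 647 FPKM in WT ICM. Uqcrq had a median of 428 FPKM in KO and 493 FPKM in WT E5.5 libraries, and of 1512 FPKM in KO and 640.4 FPKM in WT ICM.

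In WT embryos the genes were mostly lower at E5.5 than in ICM. Of the 44, 23 were called lower and 2 higher, where 18.9% of 6022 genes were called lower and 37.3% higher, and the median log2 change was −0.49 for the 44 genes and 0.43 for all genes. The WT ICM libraries also serve as controls for the KO comparison in ICM. ICM had been cultured and E5.5 embryos had grown in a uterus, so stage and these conditions cannot be told apart. Cyclic loess normalization, which brought the median of all genes to 0.02, gave 16 lower and 1 higher. Of 33 accessory genes, 18 were called lower and 0 higher, and of 10 core genes 4 were called lower and 2 higher. Groups did not overlap in 23 that were lower and 1 that was higher, where 15.9% and 33.8% of all genes did not overlap.

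The largest fall was that of Ndufa3, a membrane arm accessory subunit, with medians of 94.4 FPKM at E5.5 and 435.5 FPKM in WT ICM (log2 change −1.88, SE 0.37), where 1 WT E5.5 library at 206 FPKM overlapped the ICM range. Uqcrb had 327, 339 and 319 FPKM in WT E5.5 libraries, against a lowest, median and highest of 703, 848 and 1197 FPKM in WT ICM (log2 change −1.41, SE 0.17, adjusted p = 1.30e-05). Ndufs5, an accessory subunit of the membrane arm, had 207, 199.3 and 206 FPKM at E5.5 and a median of 516 FPKM in WT ICM (log2 change −1.33, SE 0.17). In the quinone module, Ndufs7 (−1.22, SE 0.15) and Ndufs8 (−1.16, SE 0.17) were lower. Ndufs1 was higher (0.92, SE 0.35, adjusted p = 0.0387), without a call when any single E5.5 library or WT ICM library 3 or 6 was left out, and Ndufs3 (−0.53) and Uqcrfs1 (−0.75) were lower.

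**Figure D5:**
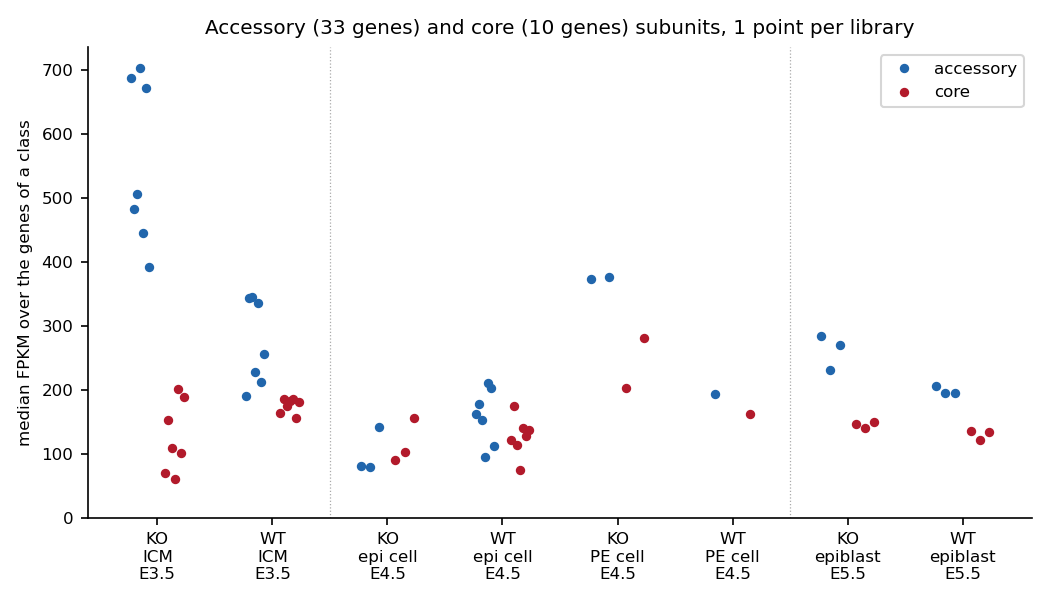
Median FPKM (y axis, from 0) over the 33 accessory genes (blue) and the 10 core genes (red), 1 point per library or cell, in KO and WT E3.5 ICM, E4.5 epiblast cells, E4.5 PE cells and E5.5 epiblast libraries; dotted lines part embryos from single cells, whose scales may differ. Accessory medians were 392 to 704 in KO ICM and 190 to 345 in WT ICM, and core medians 60.4 to 200.9 in KO ICM and 157 to 185 in WT ICM; at E5.5 accessory medians were 231 to 284 in KO and 195 to 206 in WT.

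In single E4.5 epiblast cells the accessory subunits were, as a description, lower than in the 7 WT cells in KO cells 1 and 2 and not in KO cell 3. Their median relative to the WT mean was −1.36, −0.98 and 0.02 on the log2 scale in KO cells 1, 2 and 3, and 17 of 33 were above it in KO cell 3. The same measure over all genes was −0.83, −0.46 and −0.58 in these cells. In WT cells the accessory median ran from −0.68 in cell 7 and −0.67 in cell 4 to 0.46 in cell 6. The median over all genes was −0.22 in WT cell 7, −0.13 in WT cell 4 and 0.07 in WT cell 6. Accessory genes thus lay below all genes in WT cells 4 and 7 too, as in KO cells 1 and 2, and above them in the other WT cells. The KO cells detected 3026, 3628 and 3056 genes at 1 FPKM or above, against 3878 to 4682 in WT cells, without overlap, and the part of this in the values was not tested. No test was made, since the labels name no embryo and each group then counts as 1 sample. The median log2 ratio of KO over WT means was −0.51 over the 44 genes, −0.61 over accessory genes and −0.07 over core genes, against −0.23 over all 5872 genes. Of the 44, 9 were lower by 2-fold or more, where 34.5% of all genes were, and 0 were higher by as much, where 19.7% were. The median over the 44 genes relative to WT was −1.14 and −0.68 in KO cells 1 and 2 and 0.03 in KO cell 3. Uqcrq had 65.9, 114 and 80.3 FPKM in KO cells, against a lowest, median and highest of 119, 307 and 522 FPKM in WT cells. Ndufs6, a zinc-binding accessory subunit near the NADH module, had 96.5, 105 and 134 FPKM in KO cells, against 162, 277 and 469 FPKM in WT cells. For these 2 genes all KO cells lay below all WT cells, as in 3.99% of all genes.

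Some genes stood the other way in epiblast cells. Uqcrb had 919, 795 and 1622 FPKM in KO cells, against 388, 507 and 826 FPKM in WT cells. Uqcrc1 had 593, 551 and 567 FPKM in KO cells, against 208, 321 and 634 FPKM in WT cells, and only WT cell 2 lay above the KO cells. In PE cells, 2 KO against 1 WT, the median log2 ratio was 0.42 over the 44 genes and 0.46 over all 4695 genes. There 13 of the 44 were higher by 2-fold or more, where 42.4% of all genes were, and 3 were lower by as much, where 26.8% were. Ndufa6 had 441 and 189.6 FPKM in KO PE cells, against 30.0 FPKM in the WT cell, and Ndufb6 had 997 and 1001 FPKM, against 151 FPKM. PE markers summed to 715 and 1064 FPKM in KO PE cells and 3402 FPKM in the WT cell, and to 1.88 to 65.5 FPKM in KO and 3.50 to 52.1 FPKM in WT epiblast cells.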

How the data were processed

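RNA-seq values were taken from a table of FPKM per gene and library that the authors deposited. Among the tools in the submitters' processing notes, STAR 2.7.3 and Bowtie2 2.3.5 are aligners and Trim Galore 0.6.4 trims reads, but no step is tied to the RNA data, and how FPKM were computed is not stated. Of 7186 lines, 4 with repeated gene names were left out, and 7182 genes were used. FPKM retain no depth, so no counting interval was given. Columns of single cells and of embryos were not tested against each other, since they may come from separate runs.

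Values were analysed as log2(FPKM + 1) with limma 3.58.1 in R 4.3.3 (moderated test with trend and robust options), for genes averaging 1 FPKM or more in the libraries compared, with Benjamini-Hochberg adjustment over all of them and a threshold of 0.05. A fold change on this scale understates the change of low genes. The comparisons were KO minus WT in ICM, KO minus WT at E5.5, the difference of these effects, and WT E5.5 minus WT ICM. Single cells were described without a test. The fits were tested on simulated data with noise drawn independently for each gene and library. That simulation could not show what a difference in gene number between libraries does to the calls. Each embryo library is 1 embryo per the labels' protocols, and nothing ties libraries to litters or days.

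The genes named are those called against the majority in ICM, the 3 largest called changes per complex in ICM, the highest mean level per complex, every core subunit, and the 5 smallest p in each other comparison. Of other lists, up to 3 genes of smallest p were named, and Tfb2m, Tomm40 and Tfam were added after their values were seen, as was Ndufa3. Of the genes these rules name, 2 are not reported here by name, though they count in the totals. The genes and lists were chosen with earlier results of these data known. Alternatives changed the pseudocount, filter, scaling, weights, covariates and libraries. H3K4me3, chromatin accessibility and DNA methylation files were not used here.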

Additional observations from a re-analysis of the deposited data

Results flagged for a closer look

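The effect of KO differed between E5.5 and ICM in 8 of the 44 genes by a direct test of the difference (KO effect at E5.5 minus KO effect in ICM, log2), 3 higher and 5 lower, beside 10.6% of all genes called higher and 3.38% lower. Uqcrc1 differed by 2.63, Ndufa9 by 1.56 and Uqcrc2 by 1.35. The other 5 were Ndufa7 at −1.61, Ndufa6 at −1.45, Uqcrq at −1.28, Uqcrh at −1.25 and Ndufa4 at −0.98. Uqcrc2 and Ndufa4 lost the call without KO ICM libraries 1, 4 and 6. Without any 1 of WT ICM libraries 1, 4 and 7 or KO ICM library 3, 6 of the 8 calls were kept. The KO libraries at E5.5 carry trophectoderm markers, and the part of these in the difference was not tested.

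In 3 of 75 groups of 7 libraries examined, a single library stood far from the others, and chance gives about 1 in 20 groups. Ndufs3 had 219 FPKM in WT ICM library 5, where the nearest WT ICM library had 184.8 FPKM. In single E4.5 WT epiblast cells, Ndufb8 had 433.9 FPKM in cell 2, where the nearest had 242 FPKM, and Ndufa6 had 366 FPKM in cell 5, where the nearest had 187 FPKM.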

How the results depend on the processing

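In ICM, 31 genes were called higher and 5 lower. The lower count was 1 with quantile normalization, median ratio scaling, cyclic loess, the gene span trend removed, or KO libraries 1, 4 and 6 left out, and 3 with array weights. With the number of detected genes as covariate 0 were called higher and 0 lower, and for a change over 1 on the log2 scale 15 and 2. Without single libraries the lower count ran from 3 to 6 and the higher count stayed at 31. The accessory minus core median, 1.51, was 1.03 with quantile normalization, 1.03 with cyclic loess, 1.03 without KO libraries 1, 4 and 6, and 0.36 with that covariate. Of the 36 calls, 28 kept their direction with quantile normalization, 32 with median ratio scaling and 26 with cyclic loess. The median of all genes was −0.65 as deposited (187 higher, 1353 lower) and 0.03 with quantile normalization (357, 351). It was −0.26 with median ratio scaling (414, 468), −0.02 with that covariate and 0.04 with the span trend removed (509, 219). Uncalled genes that turned higher were Ndufs3 with median ratio scaling (0.13), that covariate (0.22) and the span trend removed (0.39), Ndufs7 with the same (0.37, 0.35, 0.62) and without KO libraries 1, 4 and 6 (0.13), and Uqcrfs1 with all of these (0.33, 0.44, 0.48, 0.095). With the span trend removed Ndufa9 was 0.18.

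At E5.5 (15 higher, 1 lower), 2 were lower with quantile normalization, 0 lower with the covariate, 3 higher and 0 lower for a change over 1, and 6 higher and 0 lower with all 4 groups in 1 fit. Without single libraries 8 to 21 were higher and 0 to 2 lower. For the difference (3 higher, 5 lower), 9 were lower with median ratio scaling, 11 with array weights and 3 with cyclic loess. The covariate gave 1 higher and 1 lower, and the span trend removed 1 higher and 9 lower. Without single libraries 4 to 8 were lower and 2 to 3 higher. All genes were called 627 higher and 200 lower, against 407 and 398 with quantile normalization. In WT development (2 higher, 23 lower), 1 was higher with quantile normalization, median ratio scaling, all 4 groups in 1 fit, the span trend removed and cyclic loess, with the covariate (9 lower) and for a change over 1 (10 lower). Without single libraries 1 to 2 were higher and 16 to 28 lower. All genes were called 2247 higher and 1141 lower, against 1655 and 1498 with quantile normalization. The PE median of 0.42 was 0.52 without either KO cell. The cause of these changes was not tested. Of the values of named genes under alternatives, 903 kept direction and call, 136 lost the call, 2 gained it and 12 turned direction.

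With the replicate number as a block, 31 were higher and 3 lower in ICM, while E5.5 had 15 and 1, the difference 3 and 4, and development 1 and 19. Same-numbered libraries correlated at −0.13 to 0.16 in ICM and −0.02 to 0.12 at E5.5. KO library 2 in ICM and KO libraries 2 and 3 at E5.5 matched their own number best, and the others did not. No clear pairing by number was seen, though correlations this weak cannot exclude it. Removal of the span trend and cyclic loess were chosen after seeing the data. Alternatives on protein length were not run, since protein sequences were not used here. Depth is unknown from FPKM.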
